A study of Mus musculus with 8 samples.

Results

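The genes described here encode the ubiquitin-conjugating enzymes (Ube2 genes) and the ubiquitin-specific proteases (Usp genes) of the mouse. Members were all protein-coding genes of the deposited count table whose symbol begins with Ube2 or with Usp and a digit, without Ube2c and Usp18. The rule gave 92 of the 43346 genes listed, 37 Ube2 and 55 Usp. Of these, 77 genes (32 Ube2 and 45 Usp) passed edgeR's filter on low counts and were compared between the groups, and the other 15 had at most 4 counts in any mouse. Ventricular mRNA came from 8 male C57BL/6 mice. At 7 weeks of age, 4 mice received 1000000 LLC1 cells, a mouse lung carcinoma line that grows as a tumor after injection under the skin of the flank, and 4 mice received the PBS vehicle. Hearts were taken 14 days after the injection, and no genetic alteration is named for either group. Mice are named by group and replicate code (LLC1 1-2, 1-3, 1-5 and 2-2, and PBS 1-1, 1-3, 2-1 and 2-5).

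Ubiquitin is activated by an E1 enzyme, passed to an E2 or conjugating enzyme, and transferred to a target protein with the help of an E3 ligase. Chains of ubiquitin send proteins to the proteasome or alter their location and partners, and deubiquitinases, of which the ubiquitin-specific proteases are the most numerous family, trim or remove the chains. In striated muscle the pathway is best known for the E3 ligases of the atrophy response, which mark myofibrillar proteins for degradation. The selection by name also takes in relatives with other duties. Ube2m and Ube2f carry NEDD8, Ube2v1 and Ube2v2 lack the catalytic cysteine, Ube2cbp is an E3 ligase and Usp6nl is a GTPase-activating protein.

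Libraries held 15342214 to 19747596 counts in tumor-bearing mice and 12480706 to 16192158 in PBS-injected mice. PBS 1-1 had the lowest total and the lowest TMM scaling factor (0.935). Of the 16111 genes tested, 8.73% were called at an FDR under 0.05, 4.12% higher and 4.61% lower in tumor-bearing mice (edgeR quasi-likelihood test, Benjamini-Hochberg adjustment over all genes tested). Of the calls, 47.2% were higher, and this share was 22.1% when libraries were scaled to total counts alone. Markers of cardiomyocytes were abundant in every mouse, at a summed 92520 to 99290 CPM in tumor-bearing and 83630 to 86410 CPM in PBS-injected mice (CPM, counts per 1000000 scaled with TMM factors), and 1 of 7, Myh6, was called higher. All 6 tested markers of dividing cells were lower, with summed levels of 4.02 to 7.71 CPM against 19.3 to 58.7 CPM. Of 6 fibroblast markers 3 were lower, of 6 endothelial markers 1, and of 6 macrophage markers 1. The part of cell composition in the differences below was not tested, and in ventricular tissue fewer cells of a type and less RNA per cell cannot be told apart.

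Levels were compared between genes as CPM per kilobase of the listed gene length. The 32 tested Ube2 genes spanned 0.653 to 123 CPM per kilobase in PBS-injected mice (group means), with a median of 9.11. Ube2b, a homolog of yeast Rad6 that modifies histones and PCNA, stood first at 123 ± 11.4 CPM per kilobase (SD, n = 4). Ube2d3, a member of the Ube2d group that serves many RING E3 ligases, followed at 101 ± 19.7 CPM per kilobase (SD, n = 4), and the ranges of the 2 genes overlapped. Ube2m had 32.7 ± 1.83, Ube2g2 29.97 ± 2.30, Ube2s 23.9 ± 2.64 and Ube2r2 22.9 ± 1.78 CPM per kilobase (SD, n = 4 for each). These 6 genes made up 60.9% of the summed Ube2 level. Along the order, 24 of the 31 pairs of neighbours had overlapping values in the PBS-injected mice. The lowest tested Ube2 gene was Ube2t, a conjugating enzyme of the Fanconi anemia repair pathway, at 0.653 ± 0.0796 CPM per kilobase (SD, n = 4).

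The 45 tested Usp genes spanned 0.183 to 43.7 CPM per kilobase in PBS-injected mice, with a median of 5.43. Usp13, a relative of the free-chain protease Usp5, was highest at 43.7 ± 2.09 CPM per kilobase (SD, n = 4), and Usp28, a paralog of Usp25, was next at 40.6 ± 2.82 (SD, n = 4). Usp47 had 31.4 ± 3.24, Usp19, which has a membrane-anchored form in the endoplasmic reticulum, 25.8 ± 1.87, Usp15 25.4 ± 2.03 and Usp2 20.7 ± 4.61 CPM per kilobase (SD, n = 4 for each). The 6 genes held 45.9% of the summed Usp level, and 35 of the 44 pairs of neighbours overlapped. Usp2, which has isoforms driven by the circadian clock, was the most variable of the 6, between 79.0 CPM in PBS 1-1 and 130 CPM in PBS 2-5. The listed length joins all exons of a gene. With the longest GENCODE M21 transcript as the length, 4 of the 6 highest genes were the same in each family. On that scale Ube2d3 had 14.1 CPM per kilobase and moved to position 10, Ube2s had 5.01 and moved to position 26, Usp15 had 7.12 and moved to position 25, and Usp2 moved to position 7.

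**Figure D1:**
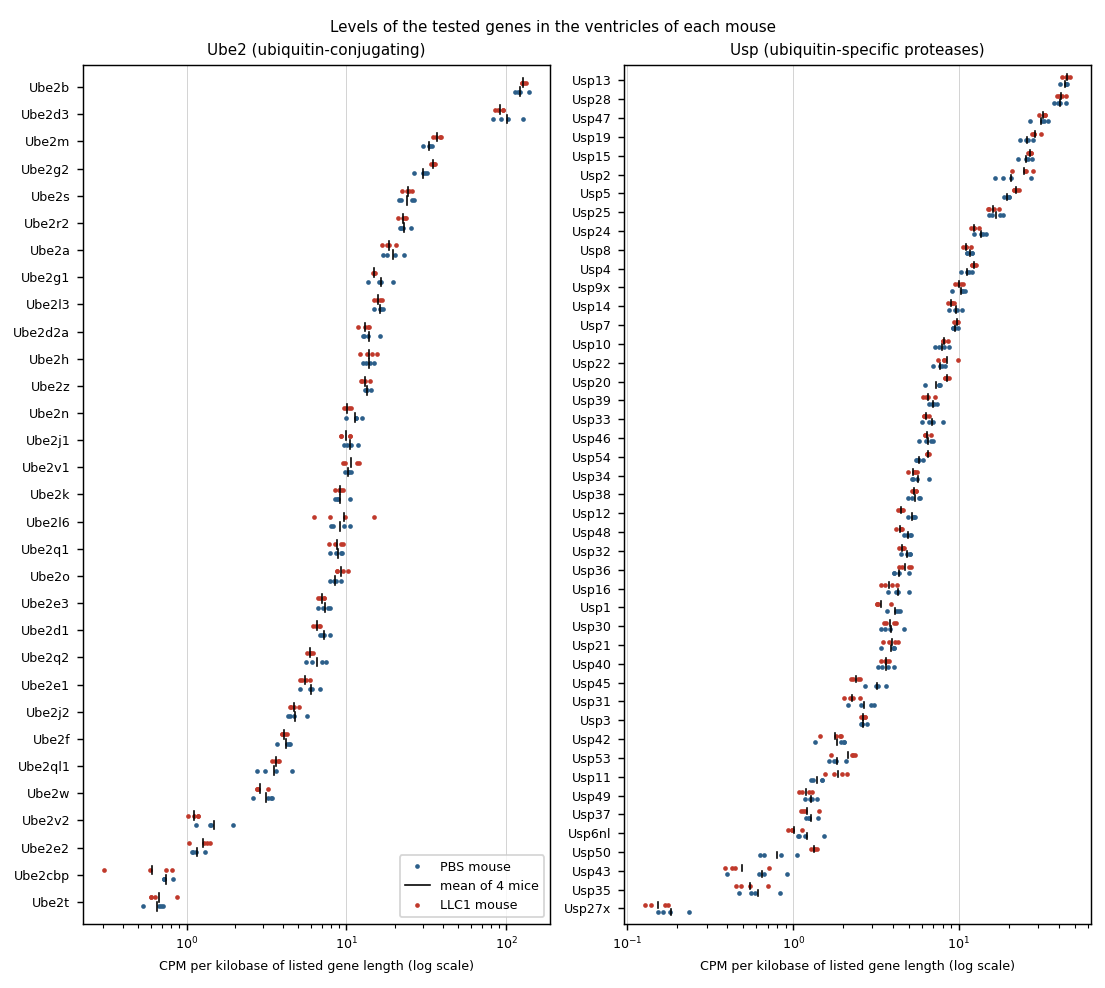
Level of 76 of the 77 tested genes in each mouse, as CPM per kilobase of listed gene length on a log scale, ordered by the PBS mean, with PBS-injected mice in blue, tumor-bearing mice in red and a black tick at each group mean of 4 mice. With these lengths Ube2b and Ube2d3 stand above the other Ube2 genes (with the longest M21 transcript as length Ube2d3 is at position 10), and the points of the groups overlap for all but 10 of the 77 tested genes.

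Summed over the family, the level of the Ube2 genes was 534 to 560 CPM per kilobase in tumor-bearing mice and 508 to 605 in PBS-injected mice, and that of the Usp genes 412 to 430 and 398 to 417. Both sums overlapped between the groups, and PBS 1-1 held the highest Ube2 sum.

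Whether tumor-bearing mice differed from PBS-injected mice was then asked of each gene. None of the 32 Ube2 genes and 2 of the 45 Usp genes were called, Usp45 lower and Usp50 higher, where 8.73% of all genes tested were called. At an unadjusted p under 0.05 the counts were 3 Ube2 and 10 Usp genes (edgeR), 16.9% of the members against 25.5% of all genes tested. DESeq2 called 1 Ube2 gene (Ube2g2) and the same 2 Usp genes, where it called 10.9% of all genes tested. Without PBS 1-1 edgeR called 4 Usp genes (Usp11, Usp45, Usp50 and Usp54, 8.89% of 45) and no Ube2 gene, beside 11.9% of all genes tested there, and without LLC1 1-2, LLC1 1-3, PBS 1-3 or PBS 2-1 it called no member, where 3.32% to 5.88% of all genes tested were called. The median log2 fold change (tumor-bearing over PBS-injected) was -0.03 for Ube2 and -0.01 for Usp genes, beside -0.01 for all genes tested. Fold changes ran from 0.766 to 1.17 in Ube2 genes and from 0.749 to 1.67 in Usp genes. The 95% interval of the log2 fold change lay within 0.5 of 0, that is between 0.707-fold and 1.41-fold, for 29 of 32 Ube2 genes and 36 of 45 Usp genes, and for 59.2% of all genes tested. Among genes with mean levels in the range of the members it did so for 74.2%. The groups did not overlap for 2 Ube2 genes, both higher, and for 8 Usp genes, 5 higher and 3 lower, a share of 13.0% of the members beside 17.2% of all genes tested (8.89% higher and 8.27% lower). The higher genes were Ube2g2, Ube2m, Usp5, Usp11, Usp20, Usp50 and Usp54, and the lower ones Usp12, Usp45 and Usp48. The 3 Ube2 genes with wider intervals were Ube2cbp, Ube2l6 and Ube2v2.

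**Figure D2:**
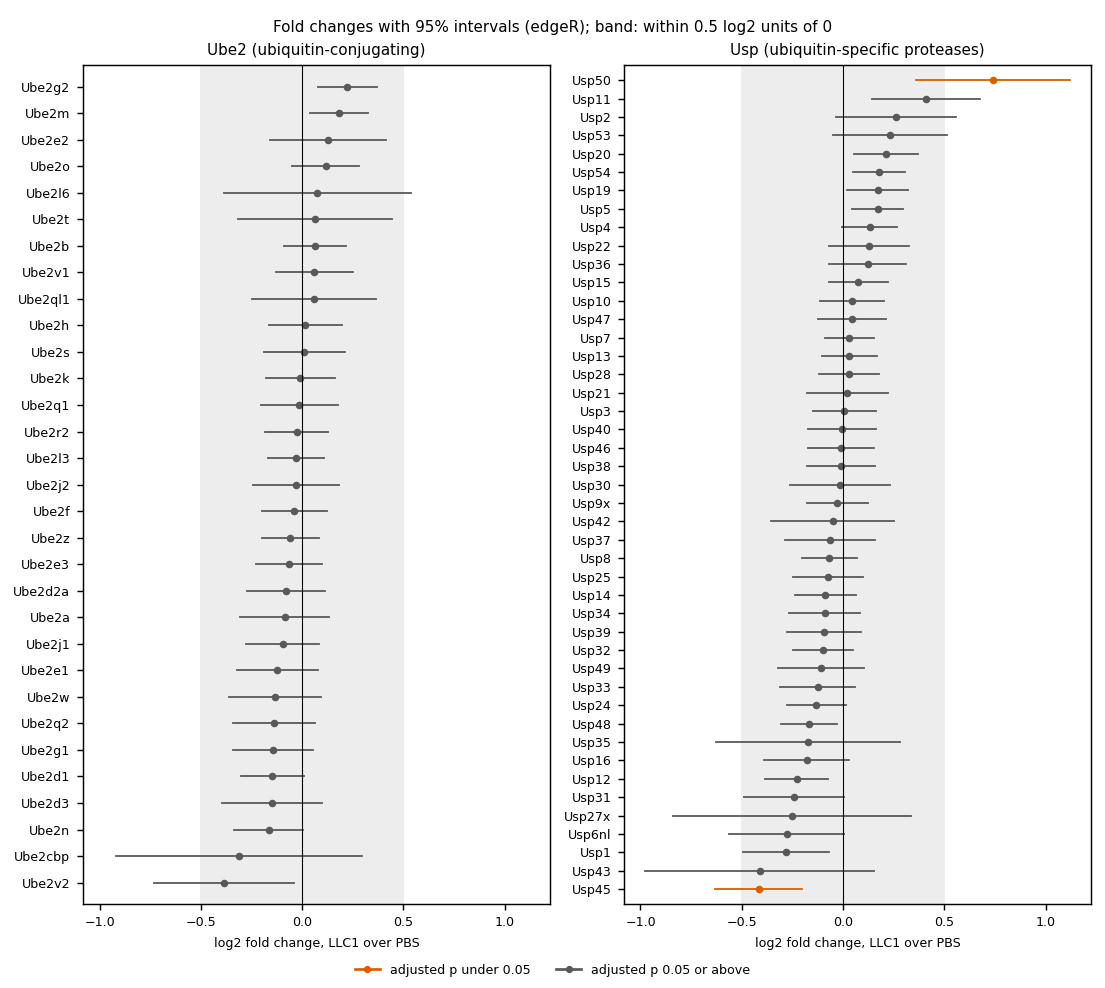
Log2 fold change of tumor-bearing over PBS-injected mice for 76 of the 77 tested genes (points) with 95% intervals (lines) from edgeR, called genes in orange and a grey band within 0.5 log2 units of 0. For 64 of the 76 genes plotted the whole interval lies inside the band, and only Usp45 and Usp50 are orange.

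Usp45 (ENSMUSG00000040455, mm10 chromosome 4, 21767156 to 21837872, plus strand) encodes a protease that acts on the DNA repair protein Ercc1. It had 14.0, 14.2, 15.8 and 15.4 CPM in LLC1 mice 1-2, 1-3, 1-5 and 2-2, and 22.7, 19.8, 20.2 and 16.8 CPM in PBS mice 1-1, 1-3, 2-1 and 2-5. Every tumor-bearing mouse was below every PBS-injected mouse, with PBS 2-5 the closest. The group means were 14.8 ± 0.866 and 19.9 ± 2.42 CPM (SD, n = 4), giving a log2 fold change of -0.42 (SE, the standard error, 0.10, edgeR FDR = 0.0238, exact permutation p = 0.0286, the smallest that 4 mice against 4 allow), or 0.749-fold with a 95% interval of 0.646 to 0.869. The call was lost in 4 of the 8 fits without 1 mouse, in which fewer genes were called over all (542 to 955) and the log2 fold change of Usp45 was -0.42 to -0.39. Its edgeR FDR was 0.0691 without LLC1 1-2, 0.0756 without LLC1 1-3, 0.0645 without PBS 1-3 and 0.0520 without PBS 2-1, and it was 0.0284 without PBS 1-1. Among mice whose code begins with 1 (3 tumor-bearing and 2 PBS-injected) the log2 fold change was -0.53 (edgeR FDR = 0.0327), and among those whose code begins with 2 (1 and 2 mice, no test) the difference was -0.26. Exons of Usp45 overlap a neighbouring gene, Tstd3 on the other strand, over 0.916% of their bases.

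The Usp45 promoter is shown because Usp45 is the called member with little exon overlap. The RefSeq window (GRCm38.p6, chr4:21776020-21776319, plus strand) runs from 250 bases before to 50 bases after the start site, written 5′ to 3′ with capitals at each GC box (GGGCGG, searched on both strands). The RefSeq start lies inside the gene span given above, not at its first base. The window is 66.7% G or C, and it holds 19 CpG dinucleotides and 3 GC boxes.
Usp45: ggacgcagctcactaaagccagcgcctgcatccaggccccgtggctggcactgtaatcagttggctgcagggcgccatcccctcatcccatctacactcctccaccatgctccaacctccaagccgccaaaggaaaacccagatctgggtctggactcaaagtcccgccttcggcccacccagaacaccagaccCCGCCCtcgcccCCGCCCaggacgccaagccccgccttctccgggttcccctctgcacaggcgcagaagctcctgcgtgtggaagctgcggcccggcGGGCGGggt
RefSeq promoters were matched for 25 tested Ube2 and 35 tested Usp genes, with a median of 68% and 66.3% G or C beside 60.7% for all tested genes that had one. The GC box was found in 76% of the Ube2 and 74.3% of the Usp promoters, in 62.6% of the promoters of genes tested and in 35.9% of all 27025 promoters. Of the other letters searched on both strands, CCAAT was present in 20% of the promoters of each family and in 38.1% of those of genes tested, CACGTG in 12% and 14.3% beside 10.1%, TATAAA in 8% and 5.71% beside 7.27%, GTAAACA in none beside 2.45%, and TGACGTCA in 8% and 0% beside 3.22%.

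Usp50 (ENSMUSG00000027364, chromosome 2, 126709096 to 126783458, minus strand) was the other call. Its counts were 65, 60, 76 and 83 in the tumor-bearing mice (1-2, 1-3, 1-5 and 2-2) and 24, 37, 33 and 55 in the PBS-injected mice (1-1, 1-3, 2-1 and 2-5). Normalized levels did not overlap, at 4.15 ± 0.145 and 2.46 ± 0.596 CPM (SD, n = 4), giving a log2 fold change of 0.74 (SE 0.17, edgeR FDR = 0.0232, exact permutation p = 0.0286). Another gene at the same place was listed with nearly as many counts. Gm10774, a processed pseudogene (chromosome 2, 126709354 to 126709557, minus strand), lies whole inside the last exon of 1 of the 5 annotated Usp50 transcripts, in its untranslated part, 73901 bases from the Usp50 start. Gm10774 had 61, 57, 73 and 77 counts in the same tumor-bearing mice and 22, 35, 32 and 48 in the same PBS-injected mice, 87.3% to 96.97% of the Usp50 count. The Usp50 count less that of Gm10774 was 4, 3, 3 and 6 counts in tumor-bearing mice and 2, 2, 1 and 7 in PBS-injected mice. The groups overlap in these differences, which are too few counts to pass the filter, so that they could not be tested at this depth. Gm10774 itself had a log2 fold change of 0.78 (SE 0.17, edgeR FDR = 0.0157).

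Genes nested in others were counted beside them elsewhere in the table too. Of 163 genes with at least 10 counts in some mouse whose exons lie wholly within the exons of another gene on the same strand, the outer gene had at least as many counts in every mouse for 162. For genes nested on the other strand this held for 147 of 151. These counts do not measure how many reads a pair of genes shares. The 204 bases of Gm10774 are also found in the transcript of Polr2l, a subunit of RNA polymerases on chromosome 7, with 203 bases identical. The stretch around the only difference is shown with the differing base in capitals (G82A, Polr2l base first, counted from 1 at the 5′ end of Gm10774), to show how little separates the genes.
Gm10774: gtctgctgcaggccAagtacacggagggg
Polr2l: gtctgctgcaggccGagtacacggagggg
The longest Usp50 transcript matches that of Polr2l over 382 bases at 99.7% identity, a longer stretch than the 204 bases of Gm10774. Polr2l had 543 to 698 counts in tumor-bearing and 436 to 607 in PBS-injected mice, with a log2 fold change of 0.12 (SE 0.09, edgeR FDR = 0.412). Of the Usp50 exon bases, 35.5% lie within the span of Usp8 on the other strand, and Usp8 had a log2 fold change of -0.07 (SE 0.06, edgeR FDR = 0.529). The part of reads from Polr2l or Usp8 in the Usp50 counts was not tested. The Usp50 call was also lost without LLC1 1-2, 1-3, 1-5 or 2-2 or without PBS 1-3 or 2-1 (edgeR FDR 0.0561 to 0.0647), and the log2 fold change was 0.81 among mice whose code begins with 1 (edgeR FDR = 0.0604) and 0.70 among those whose code begins with 2 (no test).

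**Figure D3:**
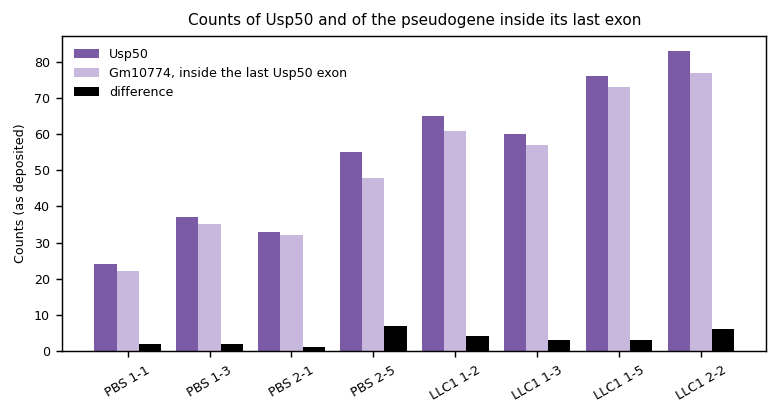
Deposited counts of Usp50 (dark bars), of Gm10774, the pseudogene inside its last exon (light bars), and their difference (black bars) in each of the 8 mice. The difference is 1 to 7 counts in every mouse, while both genes range from 22 to 83 counts.

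Usp11, Usp4 and Usp15 are paralogs linked to TGF-beta signaling and to messenger RNA splicing. Usp11 had 8.40, 9.28, 7.39 and 10.01 CPM in the tumor-bearing mice (1-2, 1-3, 1-5 and 2-2) and 7.04, 6.10, 7.06 and 6.26 CPM in the PBS-injected mice (1-1, 1-3, 2-1 and 2-5). The groups did not overlap, LLC1 1-5 being just above the highest PBS-injected mouse, and the log2 fold change of 0.41 (SE 0.12) missed the threshold (edgeR FDR = 0.0577, exact permutation p = 0.0286). It was called without LLC1 1-5 (edgeR FDR = 0.0486), without PBS 1-1 (0.0460) and in a fit with the opening code number (1 or 2) as covariate (0.44, edgeR FDR = 0.0418), and the edgeR FDR of Usp11 was between 0.0843 and 0.165 in the other fits without 1 mouse. The more abundant paralogs had smaller differences, with log2 fold changes of 0.13 for Usp4 (95% interval -0.01 to 0.27) and 0.08 for Usp15 (-0.07 to 0.22).

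Usp1, Usp12 and Usp46 are related proteases that need the WD-repeat protein Wdr48 as cofactor, and Usp1 acts on the repair proteins Fancd2 and PCNA. Usp12 had 19.8, 21.2, 21.4 and 20.6 CPM in tumor-bearing mice (1-2, 1-3, 1-5 and 2-2) and 24.5, 25.2, 22.8 and 24.7 CPM in PBS-injected mice (1-1, 1-3, 2-1 and 2-5). All tumor-bearing mice were below all PBS-injected mice, with a log2 fold change of -0.23 (SE 0.07) that missed the threshold (edgeR FDR = 0.0669, exact permutation p = 0.0286). Usp1 had 12.1, 12.1, 11.98 and 14.5 CPM against 16.4, 15.6, 16.1 and 13.7 CPM in the same order of mice. There, LLC1 2-2 lay above PBS 2-5, and the log2 fold change of -0.28 (SE 0.10) had an edgeR FDR of 0.0926 (exact permutation p = 0.0571). Without PBS 2-5 the edgeR FDR of Usp1 was 0.0483, and without each other mouse it was between 0.0568 and 0.209. A processed pseudogene, Gm5841, is 97.9% identical to 60.9% of the Usp1 transcript. Usp46, at 35.6 ± 1.47 and 35.9 ± 3.00 CPM (SD, n = 4), had a log2 fold change of -0.01 (95% interval -0.17 to 0.15). The dividing-cell markers given above were lower in every tumor-bearing mouse, and their part in the Usp1 values was not tested.

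Usp5, which takes apart free ubiquitin chains, had 99.0, 107, 99.4 and 103 CPM in tumor-bearing mice (1-2, 1-3, 1-5 and 2-2) and 86.8, 92.7, 89.9 and 93.2 CPM in PBS-injected mice (1-1, 1-3, 2-1 and 2-5). The groups did not overlap, and the log2 fold change was 0.17 (SE 0.06, edgeR FDR = 0.0858, exact permutation p = 0.0286). With GC offsets the log2 fold change of Usp5 was 0.096 (edgeR FDR = 0.283). Usp13, its relative, differed by a log2 fold change of 0.03 (95% interval -0.10 to 0.17). Usp54 had 57.0 to 58.9 CPM in tumor-bearing and 49.0 to 54.6 CPM in PBS-injected mice, without overlap, and a log2 fold change of 0.18 (SE 0.06, edgeR FDR = 0.0832). It was called without PBS 1-1 (edgeR FDR = 0.0338), and without each other mouse the edgeR FDR of Usp54 was between 0.119 and 0.221. Usp20, a deubiquitinase first found as a partner of the von Hippel-Lindau protein, had 74.5 to 78.5 CPM in tumor-bearing mice, and 68.0, 69.7 and 68.7 CPM in PBS 1-3, 2-1 and 2-5. PBS 1-1 stood lower at 56.6 CPM, and the log2 fold change was 0.21 (SE 0.07, edgeR FDR = 0.0938, and 0.0480 with the code number as covariate). Usp33, its paralog, had a log2 fold change of -0.13 (95% interval -0.31 to 0.06).

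None of the other Usp genes of known function was called. Usp7, which controls Mdm2 and p53, had a log2 fold change of 0.03 (95% interval -0.09 to 0.15), and its relative Usp47 had 0.05 (-0.12 to 0.21). Usp14, which sits on the proteasome, had -0.09 (-0.24 to 0.06), with 26.0% of its exon bases shared with Thoc1 on the other strand. Usp30, which opposes Parkin-driven mitophagy at the mitochondrial outer membrane, had -0.01 (-0.26 to 0.23). Usp9x had -0.03 (-0.18 to 0.12), Usp10 0.05 (-0.11 to 0.20), Usp25 -0.07 (-0.25 to 0.10) and Usp28 0.03 (-0.12 to 0.18). Usp19 had 0.17 (0.02 to 0.32, edgeR FDR = 0.147). Usp2 had 0.26 with a wider interval (-0.03 to 0.56, edgeR FDR = 0.251), and it was called without PBS 2-5 (0.42, edgeR FDR = 0.0315) and with the same covariate (0.37, edgeR FDR = 0.0418). Without PBS 1-1 the log2 fold change of Usp2 was 0.17 (edgeR FDR = 0.402). Of the 8 clock genes listed as markers none was called.

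**Figure D4:**
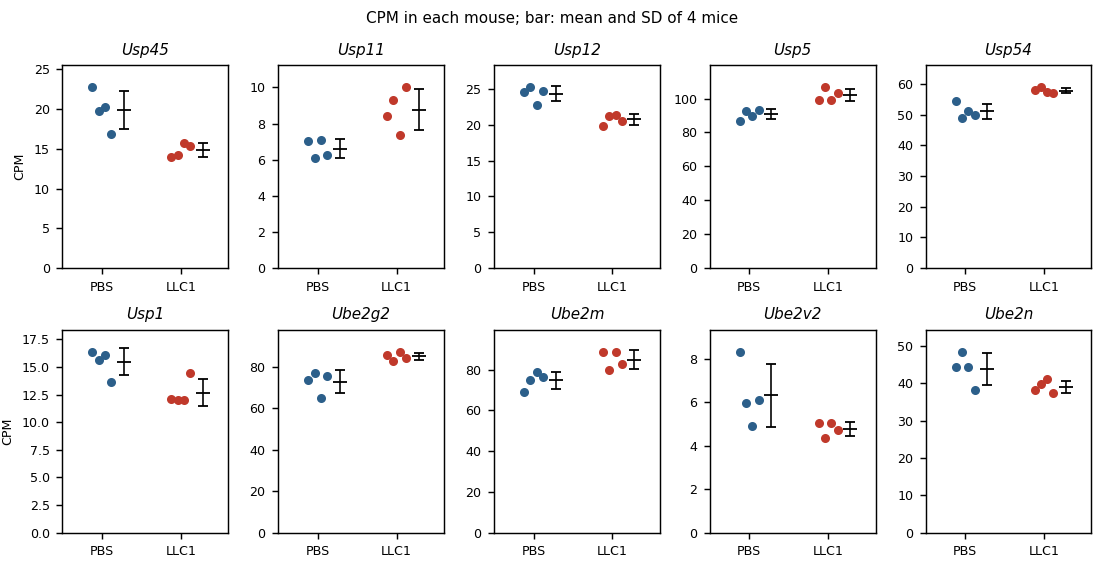
CPM of 10 genes in each mouse, PBS-injected in blue and tumor-bearing in red, with bars for the mean and SD of 4 mice and all axes starting at 0. Usp45 and Usp12 are lower, and Usp11, Usp5, Usp54, Ube2g2 and Ube2m higher, in every tumor-bearing mouse than in every PBS-injected mouse, while the groups overlap for Usp1, Ube2v2 and Ube2n.

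Among the conjugating enzymes, those of degradation at the endoplasmic reticulum are Ube2g2 and its paralog Ube2g1, and the membrane-anchored Ube2j1 and Ube2j2. Ube2g2 (ENSMUSG00000009293, chromosome 10, 77622275 to 77645993) had 85.5, 82.8, 87.3 and 84.4 CPM in tumor-bearing mice (1-2, 1-3, 1-5 and 2-2) and 73.7, 77.2, 64.7 and 75.8 CPM in PBS-injected mice (1-1, 1-3, 2-1 and 2-5). Every tumor-bearing mouse was above every PBS-injected mouse. The log2 fold change of 0.22 (SE 0.07, exact permutation p = 0.0286) had the lowest p of the Ube2 genes and missed the threshold (edgeR FDR = 0.0589, DESeq2 adjusted p = 0.0309). Ube2g1 had 66.8 to 68.8 CPM and 62.3 to 89.0 CPM, a log2 fold change of -0.14 (95% interval -0.34 to 0.05). The log2 fold change of Ube2g1 was -0.23 to -0.05 when 1 mouse was left out, and -0.19 to -0.03 in other fits with 8 mice. Ube2j1 had -0.10 (-0.28 to 0.08) and Ube2j2 -0.03 (-0.24 to 0.18).

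Ube2m and Ube2f pass NEDD8 to cullins, the scaffolds of many E3 ligases. Ube2m had 88.6, 79.6, 88.8 and 82.5 CPM in tumor-bearing mice and 69.0, 74.9, 78.7 and 76.5 CPM in PBS-injected mice (same order), without overlap. Its log2 fold change was 0.18 (SE 0.07, edgeR FDR = 0.108, exact permutation p = 0.0286), and that of Ube2f was -0.04 (95% interval -0.20 to 0.12). With GC offsets the log2 fold change of Ube2m was 0.043 (edgeR FDR = 0.801). Ube2n builds lysine-63 chains with either Ube2v1 or Ube2v2. Ube2v2 had 4.35 to 5.03 CPM in tumor-bearing and 4.89 to 8.32 CPM in PBS-injected mice, PBS 1-1 being highest, with a log2 fold change of -0.38 (SE 0.16, edgeR FDR = 0.153). The log2 fold change of Ube2v2 was -0.23 both without PBS 1-1 and with GC offsets. Ube2n had -0.17 (SE 0.08, edgeR FDR = 0.213), and Ube2v1 0.06 (95% interval -0.13 to 0.25), with 61.5% of its exon bases shared with Gm20431 on the same strand.

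The groups of paralogs serving many E3 ligases showed no called member. Ube2b had a log2 fold change of 0.06 (95% interval -0.09 to 0.22) and Ube2a -0.09 (-0.31 to 0.13). Ube2d1 had -0.15 (-0.30 to 0.01), Ube2d2a -0.08 (-0.27 to 0.12) and Ube2d3 -0.15 (-0.40 to 0.10), where PBS 1-1 held 343 CPM of Ube2d3 and the other 3 PBS-injected mice 221 to 275 CPM. Without PBS 1-1 the log2 fold change of Ube2d3 was -0.017, and with GC offsets it was -0.0019. Ube2e1 had -0.12 (-0.32 to 0.08), Ube2e2 0.13 (-0.16 to 0.41) and Ube2e3 -0.06 (-0.23 to 0.10). Ube2r2, a Cdc34 paralog that works with SCF ligases, had -0.03 (-0.18 to 0.13). Ube2l3, a partner of Parkin and of the linear chain ligase, had -0.03 (-0.17 to 0.11). Its relative Ube2l6, the conjugating enzyme of the interferon-induced modifier Isg15, ranged from 12.6 CPM in LLC1 1-5 to 29.5 CPM in LLC1 1-2 and from 15.96 to 20.95 CPM in PBS-injected mice, with a log2 fold change of 0.08 (-0.39 to 0.54). None of the 7 interferon-induced genes listed as markers was called. Ube2s, which extends chains for the anaphase-promoting complex, had 0.01 (-0.19 to 0.21) and Ube2t 0.06 (-0.31 to 0.44).

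Within pairs of related genes the ratio of levels does not depend on library scaling. In 25 pairs, the log2 ratio did not differ between groups past an adjusted p of 0.05 (exact permutation test, lowest adjusted p = 0.195 over the 25 pairs). With 4 mice against 4, at least 15 pairs would have to reach the smallest p of 0.0286 for any to pass, so a failure to pass says little. A raw p of 0.0286 was reached by 2 pairs. The log2 ratio of Ube2g1 to Ube2g2 was -0.32 ± 0.03 in tumor-bearing and 0.04 ± 0.25 in PBS-injected mice (SD, n = 4), a difference of -0.36 without overlap, and of -0.28 without PBS 1-1. The log2 ratio of Usp20 to Usp33 was 1.02 ± 0.06 and 0.68 ± 0.31 (SD, n = 4), a difference of 0.34 without overlap, and of 0.19 without PBS 1-1. In both pairs the PBS-injected mice were the more variable group.

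**Figure D5:**
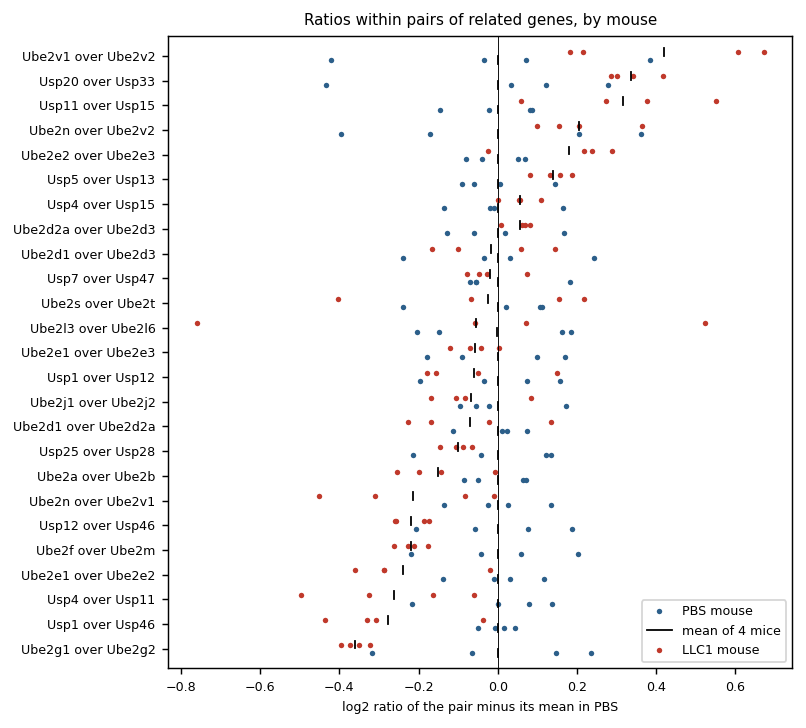
Log2 ratio of levels within 25 pairs of related genes, each shown relative to its mean in PBS-injected mice (blue, tumor-bearing mice in red, black ticks for means of 4 mice). The groups are apart in Ube2g1 over Ube2g2 and in Usp20 over Usp33, and they overlap in the other 23 pairs.

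The 15 genes that were not tested comprise Ube2d2b, Ube2d4, Ube2dnl1, Ube2dnl2 and Ube2u, and Usp17la, Usp17lb, Usp17lc, Usp17ld, Usp17le, Usp26, Usp29, Usp44, Usp51 and Usp9y. The highest count among them was 4, for Usp26 in LLC1 1-5, and 6 of them had 0 counts in all 8 mice. A count of 0 allows up to 3 counts, which is 0.152 to 0.240 CPM depending on the library, counting error only. Usp9y, the Y-linked copy of Usp9x, was among the genes at 0, while Ddx3y, another Y-linked gene, had 963 to 1505 counts in these male mice.

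Of the rest of the pathway, 69 of 76 listed genes were tested, and 2 were called higher and 2 lower (the share of all genes tested is 8.73%). Of the ubiquitin genes, Ubb had a log2 fold change of 0.32 (edgeR FDR = 0.108) and Rps27a -0.14 (0.669). None of the 10 E1 enzymes was called by edgeR as fitted, and other fits called Uba3 (the code covariate, and without PBS 2-5) and Atg7 (length offsets).

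Among 8 E2-fold proteins outside the name rule, Uevld, an inactive E2-like protein fused to a lactate dehydrogenase domain, fell from 12.3 ± 0.341 to 9.08 ± 0.598 CPM (SD, n = 4), giving a log2 fold change of -0.43 (SE 0.09, edgeR FDR = 0.0139). With GC offsets Atg3, Atg10 and Tsg101 of this list were called as well. A processed pseudogene, Gm9256, matches 30.8% of the Uevld transcript at 99.2% identity. Among 36 tested deubiquitinases of the OTU, UCH, JAMM, Josephin, MINDY and ZUFSP families, Tnfaip3, also named A20, which restrains NF-kappa-B signaling, was the only call by edgeR as fitted. Other fits also called Eif3h (DESeq2), Uchl4 (DESeq2, the code covariate, all genes with at least 1 count, and without PBS 2-1), Fam63a (the code covariate and length offsets), Fam63b (without PBS 2-5), and Brcc3 and Uchl3 (GC offsets). Tnfaip3 had 3.97, 3.29, 4.16 and 4.13 CPM in tumor-bearing mice (1-2, 1-3, 1-5 and 2-2) and 7.21, 7.08, 6.83 and 5.84 CPM in PBS-injected mice (1-1, 1-3, 2-1 and 2-5), with a log2 fold change of -0.78 (SE 0.13, edgeR FDR = 0.00513). Uevld and Tnfaip3 were called in each of the 8 fits that left out 1 mouse. None of 3 USP-fold proteases outside the name rule was called. Of 8 tested partners of Usp proteins, Dmwd, a WD-repeat protein, was higher at 79.3 ± 2.19 against 60.9 ± 9.30 CPM (SD, n = 4), giving a log2 fold change of 0.38 (SE 0.09, edgeR FDR = 0.0302). The Dmwd call held in only 2 of the 8 fits that left out 1 mouse (without PBS 1-1 or PBS 2-5), and it was lost with total counts (edgeR FDR = 0.125) and with GC offsets (edgeR FDR = 0.146).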

How the data were processed

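The authors deposited whole-number read counts, 1 per gene and mouse, made from 150-base paired-end reads of an RNA library kit that does not mark strand. Per the labels, CASAVA, STAR and featureCounts were used with build mm10. Their versions, the annotation and the treatment of overlapping genes are not given in the sources used here. Counts were compared with edgeR 4.0.16 (R 4.3.3): filterByExpr, TMM factors, glmQLFit and glmQLFTest on all 8 mice, Benjamini-Hochberg adjustment over 16111 genes (FDR), called under 0.05. Standard errors are the absolute log2 fold change over the square root of F, and intervals are 95% from the same fit. The deposited counts were also given as CPM and tested by a two-sided exact permutation test of log2 CPM (prior count 2, 70 arrangements). At 1 CPM a gene had 12.5 to 19.7 counts. Labels do not say more than that mice are separate, so p-values measure the spread between these mice.

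The genes and all lists were chosen with earlier results of these data known. Genes named are those with an FDR under 0.05, the 6 highest per kilobase and the 4 uncalled with the lowest p in each family, the paralog and role groups, and called genes of the pathway lists. Usp8, Usp48, Ube2cbp, Ubb, Rps27a and the genes overlapping or resembling members (such as Gm10774 and Polr2l) were named after their values were seen. Single results of a few genes are not reported here, while counts over the lists include them. Marker lists covered cardiomyocyte, endothelial, fibroblast, macrophage, lymphocyte, erythroid, dividing, interferon-induced and clock genes. Of lymphocyte markers 1 was tested and of erythroid markers 6, and none was called. Sequence matches used BLAST 2.17.0 (at least 97% identity over at least 150 bases of GENCODE M21 transcripts) and promoters came from RefSeq. Alternatives were DESeq2 1.42.0, upper-quartile factors, total counts, 2 other filters on low counts, robust empirical Bayes, limma-voom (limma 3.58.1), a covariate for the code number (1 or 2) that opens each replicate name, offsets for gene length or GC content (15951 of 16111 genes had a GC value), each mouse left out in turn and, chosen after seeing the data, Usp50 less the counts of Gm10774. On simulated counts of this comparison over 15947 genes, 175 of 200 genes changed 2-fold were recovered (87.5%), and 10 unchanged genes were called. With no gene changed, 1 was called. Fold changes of the members were smaller than 2-fold (0.749 to 1.67), so the 87.5% does not measure recovery of differences of their size.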

Additional observations from a re-analysis of the deposited data

Results flagged for a closer look

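In 92 groups of 4 mice (46 named genes in 2 groups), 6 single mice stood apart from the other 3 of their group by Dixon's criterion, where chance gives about 1 in 20. The values are normalized CPM. In tumor-bearing mice, LLC1 2-2 was high for Usp1 (14.5, others 11.98 to 12.1) and for Usp10 (47.2, others 43.5 to 44.1), and LLC1 1-5 was high for Ube2t (4.21, others 2.90 to 3.07) and low for Usp7 (72.8, others 75.9 to 76.4). In PBS-injected mice, PBS 2-5 was low for Usp13 (309, others 338 to 344), and PBS 1-1 was low for Usp20 (56.6, others 68.0 to 69.7). Without PBS 1-1, the edgeR FDR of Usp20 was 0.117. Without LLC1 2-2, the edgeR FDR of Usp1 was 0.0568.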

How the results depend on the processing

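No paired analysis was possible because the groups share only 1 replicate code, carried by different animals. The count of called Ube2 genes was 0 in every fit that left out 1 mouse and 1 with DESeq2 (10.9% of all genes called). The count of called Usp genes, 2 as reported, was 0 to 4 when 1 mouse was left out, 1 with scaling to total counts (6.32% of all genes called), 5 with the code covariate (Usp2, Usp11 and Usp20 added, 11.1% of 45 beside 10.4% of all genes), 7 with gene length offsets (Usp5, Usp11, Usp19, Usp20 and Usp54 added, 15.6% beside 8.87%) and 1 with Usp50 less the counts of Gm10774, where Usp50 could not be fitted. It was 0 without LLC1 1-2, LLC1 1-3, PBS 1-3 or PBS 2-1 (all genes 4.59%, 3.88%, 3.32% and 5.88%), 1 without LLC1 2-2 (5.11%), and 4 without PBS 1-1 (11.9%) or PBS 2-5 (10.1%, with Usp1 and Usp2 added). When 1 mouse was left out, all genes called numbered 542 to 1949 (3.32% to 11.9%) and called genes of the pathway lists 2 to 6 of 69 tested. Of these 69 genes, 2 were called with total counts (6.32% of all genes), 7 with the code covariate (10.4%) and 7 with GC offsets (8.07%), beside 4 as reported (8.73%). Usp45 was called in all 11 alternatives with 8 mice, but the fit with Usp50 less the counts of Gm10774 left the Usp45 counts unchanged. Usp50 was called in 9 of 10 (log2 fold change 0.68 and edgeR FDR 0.0505 with total counts). The sign turned for 18 named genes, all with a reported log2 fold change of at most 0.09 in size. The log2 fold change of the called Usp45 was smaller with GC offsets (-0.29, edgeR FDR = 0.0396) and with length offsets (-0.36, edgeR FDR = 0.0425). GC offsets also lowered the size of uncalled differences, to -0.0518 for Ube2n, 0.0849 for Usp19 and 0.136 for Usp20. With GC offsets, the log2 fold change became 0.0163 for Ube2a, 0.0524 for Ube2d2a, 0.0352 for Ube2l3, -0.0091 for Ube2v1, -0.0084 for Usp10, 0.038 for Usp14, 0.0817 for Usp46 and 0.0907 for Usp9x. With length offsets, the log2 fold change became 0.0359 for Ube2f, 0.004 for Ube2j2, 0.0225 for Ube2l3, 0.0042 for Ube2r2, -0.1073 for Ube2s, 0.0088 for Usp30, 0.039 for Usp46 and 0.0389 for Usp9x. With total counts, the log2 fold change became -0.0419 for Ube2s, -0.0107 for Usp10, -0.0216 for Usp13, -0.0208 for Usp28, -0.0051 for Usp47 and -0.0209 for Usp7. With the code covariate, the log2 fold change became -0.0053 for Ube2s and 0.0028 for Usp30. With all genes of at least 1 count, the log2 fold change became 0.0004 for Usp30 and 0.004 for Usp46. With limma-voom, the log2 fold change became -0.0106 for Ube2l6. When 1 mouse was left out, the log2 fold change turned sign in 13 genes, with ranges of -0.155 to 0.0006 for Ube2a, -0.118 to 0.0031 for Ube2d2a, -0.0828 to 0.0614 for Ube2j2, -0.1978 to 0.2381 for Ube2l6, -0.061 to 0.0241 for Ube2r2, -0.0456 to 0.0666 for Ube2s, -0.0831 to 0.1171 for Ube2t, -0.0063 to 0.1132 for Ube2v1, -0.0072 to 0.061 for Usp13, -0.0084 to 0.0749 for Usp28, -0.0704 to 0.0869 for Usp30, -0.069 to 0.0248 for Usp46 and -0.0269 to 0.0926 for Usp47. The cause was not tested.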
